A study of Mus musculus with 6 samples.

Results

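The AP-1 and BATF genes encode transcription factors of the basic leucine zipper (bZIP) class. They were taken as the array rows whose single gene symbol was Batf, Batf3, Jdp2, Fos, Fosb, Fosl1, Fosl2, Jun, Junb or Jund. Of these 10 genes, 9 had such a row, 1 row each, among 30702 genes measured. Junb, whose protein pairs with BATF in TH17 cells, is not analysed here because its row also names a second gene.

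Mouse T cells cultured toward the TH17 fate, that of helper cells secreting IL-17, were measured on 6 Affymetrix arrays, 3 for cultures given glutamine and 3 for cultures lacking it. Glutamine is an amino acid that feeds the TCA cycle and nucleotide synthesis. All cultures started from sorted naive CD4 T cells that lacked CD25 and CD44 and carried CD62L. Every culture was stimulated for 3 days through CD3 and CD28 in IMDM with 10% FBS. The skewing cytokines were TGF-beta (1.25 ng/ml), IL-6 (20 ng/ml) and IL-23 (20 ng/ml), and IFN-gamma, IL-4 and IL-12 were neutralized with antibodies (10 ug/ml). The stated culture conditions of the groups thus differed by glutamine alone. The labels give neither strain nor age, and they call the arrays biological replicates without naming mice, so the spread behind each p-value may be technical.

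AP-1 is a dimer of a JUN protein with a FOS, JUN, ATF or BATF protein, joined through the leucine zipper, and it binds DNA through the basic region. T cell receptor signals reach it through MAP kinases, and in helper T cells it binds next to NFAT or IRF factors at cytokine genes. BATF has no activation domain of its own. It binds with a JUN protein and with IRF4, and TH17 cells need it to make IL-17.

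The promoters of 5 members are shown, those of the 3 with the largest falls (Batf3, Fosl2 and Jund) and those of Batf and Fos, whose differences were close to each other and whose genes lie near each other. Each is the 250 bases before the RefSeq transcription start (RefSeq, GRCm38.p6), 5′ to 3′ along the gene. Capitals mark matches to the motifs searched.
Batf3, chr1:191098164-191098413, + strand: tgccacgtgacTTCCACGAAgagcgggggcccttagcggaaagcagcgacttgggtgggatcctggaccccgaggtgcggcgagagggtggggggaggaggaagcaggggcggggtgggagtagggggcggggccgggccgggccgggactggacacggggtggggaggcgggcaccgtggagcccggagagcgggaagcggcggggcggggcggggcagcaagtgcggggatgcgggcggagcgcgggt
Fosl2, chr5:32136222-32136471, + strand: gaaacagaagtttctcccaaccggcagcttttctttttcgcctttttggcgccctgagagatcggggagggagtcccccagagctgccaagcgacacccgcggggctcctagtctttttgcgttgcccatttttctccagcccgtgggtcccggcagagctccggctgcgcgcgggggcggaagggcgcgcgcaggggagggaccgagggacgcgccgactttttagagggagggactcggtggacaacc
Jund, chr8:70697489-70697738, + strand: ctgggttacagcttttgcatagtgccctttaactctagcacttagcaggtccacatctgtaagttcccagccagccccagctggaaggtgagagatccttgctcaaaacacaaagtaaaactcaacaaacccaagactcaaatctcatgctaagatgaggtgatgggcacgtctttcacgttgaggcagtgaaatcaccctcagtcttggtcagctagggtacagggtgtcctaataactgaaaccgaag
Batf, chr12:85686470-85686719, + strand: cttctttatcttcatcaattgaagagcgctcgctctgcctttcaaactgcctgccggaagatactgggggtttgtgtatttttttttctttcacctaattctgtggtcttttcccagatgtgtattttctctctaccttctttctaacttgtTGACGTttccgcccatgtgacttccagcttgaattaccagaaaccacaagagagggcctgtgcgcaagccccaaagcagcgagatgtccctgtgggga
Fos, chr12:85473640-85473889, + strand: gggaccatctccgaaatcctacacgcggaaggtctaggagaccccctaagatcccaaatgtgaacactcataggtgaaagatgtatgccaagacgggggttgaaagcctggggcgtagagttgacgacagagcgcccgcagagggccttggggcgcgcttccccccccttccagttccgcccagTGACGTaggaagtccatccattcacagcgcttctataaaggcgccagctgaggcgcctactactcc

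The motifs were searched on both strands of windows running from 250 bases before to 50 bases after each start. They were the AP-1 site TGANTCA, the cyclic AMP response element (CRE) TGACGTCA, its core TGACGT (which every CRE contains), the STAT site TTCNNNGAA, the composite elements of AP-1 and IRF (which contain the AP-1 site) and the CArG box bound by SRF. RefSeq windows were found for 8 of the 9 measured members, 10 windows with the 3 of Jdp2, and for Junb. The CRE core matched in 3 measured members, which were Batf at -98 to -93, Fos at -66 to -61 and 1 of the windows of Jdp2 at -114 to -109, counted from the start. It matched in 7.51% of all 32851 windows. Batf3 held a STAT site at -239 to -231, a motif found in 8.3% of all windows. The AP-1 site, present in 7.81% of all windows, the full CRE (1.79%), the composites (0.195%) and the CArG box (1.63%) had 0 matches in the windows of the measured members. These letters are thus not in these windows, which says nothing of more distant sites.

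Without glutamine, Batf3, Fosl2, Jund and Fosb were lower and Fosl1 was higher, while Batf, Fos, Jun and Jdp2 did not pass the test. A gene passed at an adjusted p under 0.05 (limma, Benjamini-Hochberg over all 30702 genes). By this rule 5 of the 9 members passed, against 22.3% of all genes. In the downward direction 4 of 9 passed, against 13.0% of all genes, and 3 of these fell by at least 1 log2, against 2.84%. In the upward direction 1 of 9 passed, against 9.3%. These shares include dim genes, while all 9 members stood above the median level (percentiles 53.6 to 91.8 of all genes). Among the 15351 genes above that level, tested alone, 42.4% passed, 4089 lower and 2424 higher. There 6 members were lower and 1 was higher. The median difference over the 9 members was -0.44 log2, and that over all genes was 0.060. Differences are means without glutamine minus means with it, on the log2 scale as deposited.

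**Figure D1:**
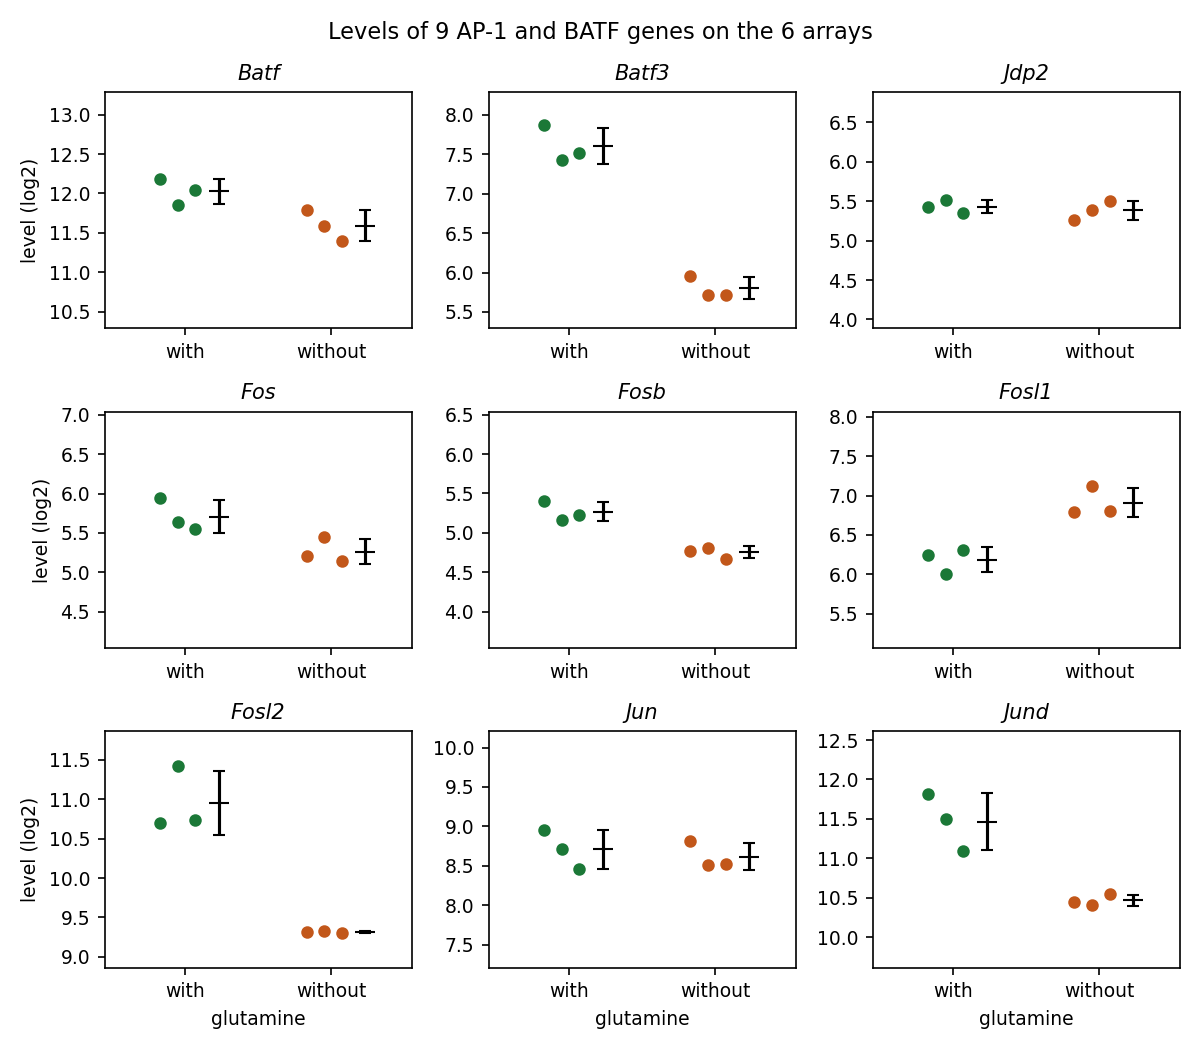
Levels of the 9 measured genes (log2, vertical axis, each panel spanning 3 log2 units) on the 3 arrays with glutamine (green) and the 3 without it (orange), with the mean and SD of each group in black. The groups stand apart in 7 panels and overlap for Jun and Jdp2, and Fosl1 is the panel in which the orange points are higher.

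The groups did not overlap in 7 of the 9 members, against 43.8% of all genes. In 6 of them every array without glutamine was below every array with it, against 18.8% of all genes, and in 1 it was above, against 25.0%. These shares too are over genes of every level, dim ones included.

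Batf3 encodes a small bZIP protein like BATF, known above all for its part in the development of cross-presenting dendritic cells, and also made by activated T cells. Its level was 7.87, 7.43 and 7.51 log2 on the arrays with glutamine and 5.96, 5.72 and 5.72 on those without it. The arrays without glutamine were all lower, and the gap between the groups (1.47) was more than the range within either. Batf3 fell from 7.60 ± 0.23 to 5.80 ± 0.14 (SD, n = 3), a difference of -1.81 (SE 0.13, 95% interval -2.13 to -1.48, limma adjusted p = 0.000457). In the ordering of all genes from the largest fall to the largest rise this is percentile 0.694.

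Each count of marker genes as deposited in this paragraph stands beside 9.3% of all genes higher and 13.0% lower. As deposited, genes that mark dendritic cells, the cells for which Batf3 is best known, did not pass in 6 of 6 cases. With each array's median set equal, 1 of these 6 was lower. Averaged over the list, their level was 3.81 to 3.84 log2 on the arrays with glutamine and 3.77 to 3.90 on those without it, below the array medians of 4.18 to 4.21 and 4.33 to 4.38. Of 11 myeloid markers 3 were lower and 0 higher, with a mean level of 4.003 to 4.13 with glutamine and 3.81 to 3.83 without it. Of these, Lyz2 fell from 5.80 ± 0.33 to 4.14 ± 0.14 (limma adjusted p = 0.00137) and kept its call whichever array was left out (up to 0.00937). The call of Clec7a was lost when any array but the third with glutamine was left out (adjusted p up to 0.134). That of S100a8 was lost without replicates 1 or 3 with glutamine or 2 or 3 lacking it (up to 0.0925). Of 7 B cell markers 0 passed, with a mean level of 3.75 to 3.76 with and 3.78 to 3.92 without glutamine. Of 5 markers of NK and innate lymphoid cells 1 was lower, with a mean level of 4.10 to 4.21 and 3.92 to 4.03. After quantile normalization 2 of these 5 were lower, and with equal array medians 2 as well. Of 4 CD8 T cell markers 1 was lower, with a mean level of 5.10 to 5.32 and 5.04 to 5.14. The counts of myeloid, B cell and CD8 T cell markers called were the same under both scalings. The 8 T cell markers had a mean level of 13.86 to 14.04 with and 14.09 to 14.22 without glutamine, with 2 higher and 0 lower as deposited and 1 higher and 2 lower after quantile normalization. The call of Cd5 was lost there (0.13, adjusted p = 0.468), and that of Cd3d (0.88) was lost without replicate 2 with glutamine or replicates 1 or 2 lacking it (adjusted p up to 0.0633). The part of the myeloid, NK and CD8 markers in the members' differences was not tested. A lower array signal in such cultures cannot tell fewer cells of a type from less RNA per cell.

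Batf itself, the family member that TH17 cells need, did not pass as deposited. It read 12.18, 11.86 and 12.05 log2 with glutamine and 11.79, 11.59 and 11.40 without it. The groups were separate by a gap of only 0.069, less than the range within either of them. The difference was -0.43 (SE 0.13, 95% interval -0.74 to -0.13), from 12.03 ± 0.16 to 11.59 ± 0.19 (SD, n = 3), and missed the threshold at adjusted p = 0.0533 (limma; 0.0122 unadjusted). The call depended on scaling, since Batf passed after quantile normalization (-0.52, adjusted p = 0.0196) and with each array's median set equal, called centring here (-0.59, adjusted p = 0.0185). It passed as well among genes above the median level (0.0354) and without the first array lacking glutamine (-0.53, adjusted p = 0.0419). Over all alternatives its adjusted p ran from 0.0185 to 0.139. Batf2, the remaining BATF paralog and not among the 9, stood at 3.37 ± 0.04 with and 3.44 ± 0.12 without glutamine (adjusted p = 0.567).

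Jdp2 encodes a bZIP protein that pairs with JUN proteins and represses AP-1 sites. Its level was 5.42, 5.51 and 5.35 log2 with glutamine and 5.26, 5.39 and 5.50 without it. The groups overlapped, and the difference was -0.046 (95% interval -0.26 to 0.16, limma adjusted p = 0.735). That interval holds for the deposited scale only and does not exclude a change. The difference was -0.22 after quantile normalization (adjusted p = 0.127) and -0.20 after centring (0.157).

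Among the FOS proteins, which cannot pair with each other and need a JUN partner, the genes of the FRA proteins moved in opposite directions. Fosl2 encodes FRA-2, which lacks the activation domain of FOS. It read 10.70, 11.42 and 10.74 log2 with glutamine and 9.31, 9.33 and 9.30 without it. The arrays without glutamine agreed within 0.029, while the second array with glutamine stood 0.69 above the next. Fosl2 fell from 10.95 ± 0.41 to 9.31 ± 0.014 (SD, n = 3), a difference of -1.64 (SE 0.19, 95% interval -2.10 to -1.18, limma adjusted p = 0.00219). When each array was left out in turn the difference ran from -1.77 to -1.41 with an adjusted p of 0.000871 to 0.0138, so the high array did not decide the call.

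Fosl1 encodes FRA-1, the close relative of FRA-2, and was the member that rose. It read 6.25, 6.01 and 6.30 log2 with glutamine and 6.80, 7.12 and 6.81 without it. The groups were separate, by a gap of 0.49. Fosl1 rose from 6.19 ± 0.16 to 6.91 ± 0.19 (SD, n = 3), a difference of 0.72 (SE 0.12, 95% interval 0.42 to 1.02, limma adjusted p = 0.00899). It kept its direction and its call after quantile normalization (0.59) and centring (0.57), and missed the threshold with the unmoderated statistic (adjusted p = 0.0528).

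Fos and Fosb are immediate early genes, switched on within minutes of a stimulus and soon off again, and the arrays read them 3 days after stimulation began. Fosb read 5.41, 5.17 and 5.23 log2 with glutamine and 4.77, 4.81 and 4.67 without it. The groups were separate, and Fosb fell from 5.27 ± 0.12 to 4.75 ± 0.076 (SD, n = 3), a difference of -0.52 (SE 0.088, limma adjusted p = 0.00837). Fos read 5.94, 5.64 and 5.55 with glutamine and 5.21, 5.44 and 5.14 without it. Its groups were separate by 0.10, but the difference of -0.44 (95% interval -0.76 to -0.13) missed the threshold (limma adjusted p = 0.0532, 0.0122 unadjusted). As for Batf, scaling decided the call, with -0.62 and adjusted p = 0.0256 after quantile normalization and -0.60 and 0.0159 after centring. Fos also passed among genes above the median level (0.0349) and without the third array with glutamine (-0.52, adjusted p = 0.0456). Over all alternatives its adjusted p ran from 0.0159 to 0.144.

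Of the JUN proteins, which can pair with themselves and with every other member, Jund fell and Jun did not pass. Jund encodes JUND, which resting and dividing cells make more steadily than JUN. It read 11.81, 11.50 and 11.09 log2 with glutamine and 10.45, 10.40 and 10.54 without it. The arrays without glutamine were all lower and lay within 0.14 of each other, against 0.73 among those with it. Jund fell from 11.47 ± 0.36 to 10.47 ± 0.071 (SD, n = 3), a difference of -1.001 (SE 0.18, 95% interval -1.42 to -0.58, limma adjusted p = 0.00962), and missed the threshold with the unmoderated statistic (adjusted p = 0.0612). Jun, an immediate early gene and the substrate that names the JNK kinases, read 8.96, 8.71 and 8.45 with glutamine and 8.81, 8.51 and 8.52 without it. These groups overlapped, and the difference was -0.093 (95% interval -0.45 to 0.26, limma adjusted p = 0.681).

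**Figure D2:**
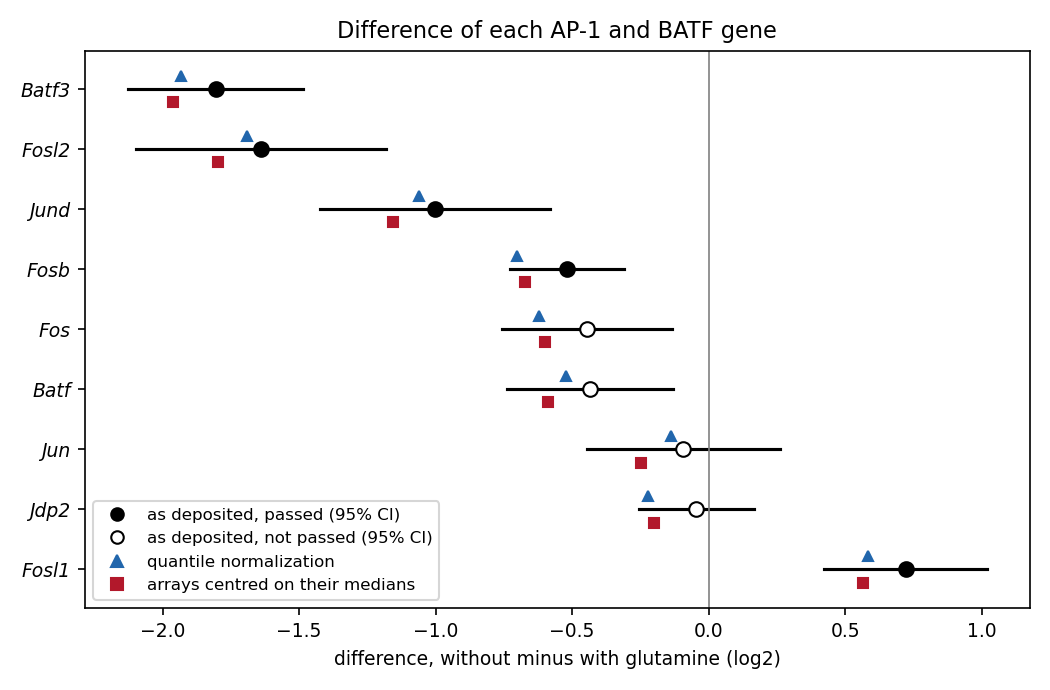
Difference without minus with glutamine (log2, horizontal axis) of each of the 9 genes, as circles with 95% intervals for the deposited values (filled where the gene passed) and as triangles and squares after each of the other scalings. Scaling moves every gene to the left by up to 0.18, keeps every direction, and turns the calls of Batf and Fos only.

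The unequal change of related members was also read within each array, where a shift of the whole array cancels. The level of Batf minus that of Batf3 was 4.42 ± 0.11 with glutamine and 5.79 ± 0.099 without it (SD, n = 3), so the gap changed by 1.37. Jun minus Jund changed by 0.91, from -2.76 ± 0.11 to -1.85 ± 0.20, and Fosl1 minus Fosl2 by 2.36, from -4.77 ± 0.56 to -2.40 ± 0.17. In each of the 3 pairs compared the groups did not overlap, and the share over other gene pairs was not taken. The pairs are of members whose differences above were unlike, and each change of gap follows from those differences. Fos and Fosb, at -0.44 and -0.52, were not compared. The exact two-sided permutation test gave p = 0.1 for each, the smallest that 3 arrays against 3 allow, and 0.1 after Benjamini-Hochberg adjustment. It could not reach 0.05, so no conclusion is drawn from it. The size of a gap on 1 array also holds differences between probes, so only its change between groups is read here.

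**Figure D3:**
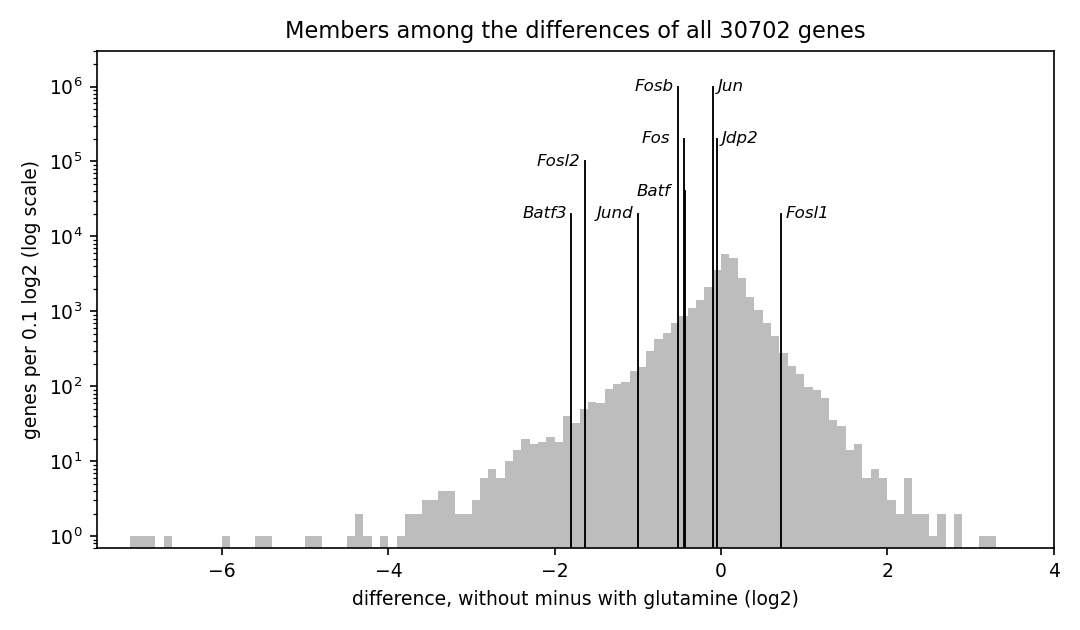
Number of genes per 0.1 log2 (vertical axis, log scale) by their difference without minus with glutamine (log2, horizontal axis) for all 30702 genes, with lines at the 9 members. Batf3, Fosl2 and Jund stand in the lower tail at percentiles 0.694, 0.922 and 2.90, and Fosl1 stands at percentile 96.9.

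Between these ends, Fosb stood at percentile 9.27 of all differences, Fos at 11.2, Batf at 11.5, Jun at 28.4 and Jdp2 at 33.3. By the likeness rule, the genes whose profile over the 6 arrays came nearest to that of Batf3, after each was centred on its own mean, were Cdc25c (root mean square distance 0.090 log2), Slc15a3 (0.093) and Pbk (0.099) among 18338 protein coding genes. For Fosl1 they were Etv5 (0.088), Rgs10 (0.099) and Aaas (0.10). These distances describe 6 arrays in 2 groups and carry no test.

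Fos, Jdp2 and Batf follow each other on chromosome 12 with no other measured protein coding gene between them in the RefSeq order (GRCm38.p6). None of the 3 passed as deposited, where 22.3% of all genes passed, but they were not alike. Fos (-0.44) and Batf (-0.43) passed after either scaling, and Jdp2 (-0.046) passed after neither. The nearest measured protein coding genes on either side of the members included 14 genes outside the family. Of these 2 were lower, against 13.0% of all genes, and 0 were higher, against 9.3%. Chosen after their values were seen, the 2 lower genes were Nsl1 and Fggy. Nsl1, a kinetochore gene next to Batf3, fell by 1.35 from 9.32 ± 0.12. Fggy, next to Jun, fell by 1.32 from 7.57 ± 0.12. The neighbours of Fosl2 and Jund did not pass.

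The other genes of the pathway came from 10 lists with 153 measured genes. Each count as deposited below stands beside 9.3% of all genes higher and 13.0% lower. These shares include dim genes. Among the 15351 genes above the median level, tested alone, 42.4% passed, 4089 lower and 2424 higher. No share matched to the level of the listed genes was taken. The bZIP factors outside the family moved in both directions. Of 11 measured MAF, BACH, CNC and BATF2 genes 3 were higher and 1 was lower (median 0.070). Maf, a TH17 and IL-10 regulator, rose from 12.54 ± 0.23 to 14.46 ± 0.13, and Bach2, a repressor that competes with AP-1 for its sites, rose from 12.17 ± 0.27 to 13.02 ± 0.19 (limma adjusted p = 0.0112). After quantile normalization 2 were higher and 0 lower.

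Of 28 ATF, CREB, CEBP and PAR genes 4 were higher and 5 lower as deposited (median 0.055). With quantiles equalised 4 were higher and 6 lower (median -0.069), and with centring 2 and 8 (-0.10). Atf5 and Ddit3, amino acid and ER stress factors, rose by 1.46 and 0.93. Atf4 and Xbp1, picked with their values in view, also serve those stress responses and fell by 0.46 and 0.62 (limma adjusted p = 0.0178 and 0.0187). The call of Atf4 was lost without replicates 1 or 2 with glutamine or 2 or 3 lacking it (adjusted p up to 0.0600), and that of Xbp1 without replicates 1 or 2 with glutamine or 1 or 3 lacking it (up to 0.0597). Crem, a cyclic AMP responsive factor, fell by 1.12 from 8.11 ± 0.33, and Nfil3 fell by 0.83 from 6.93 ± 0.23. Atf3, an immediate early partner of JUN chosen after its values were seen, stood at 8.28 ± 0.29 with and 7.85 ± 0.11 without glutamine (adjusted p = 0.0896) and passed after centring and with the array weights, among other alternatives.

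The genes of the IRF and NFAT list ran the other way from most members. Of these 7 genes 5 were higher and 0 lower, against 9.3% and 13.0% of all genes, with a median of 0.67. That median stood at 0.58 after quantile normalization and 0.51 after centring, where 3 and 4 were higher. The 2 that did not pass were Nfatc2 (0.19, limma adjusted p = 0.508) and Nfatc4 (0.12, 0.246). Nfatc1 rose from 11.45 ± 0.31 to 12.75 ± 0.27, Irf8 by 0.86, Nfat5 by 0.70 and Nfatc3 by 0.67. The call of Nfat5 was lost after either scaling and when any array but the third with glutamine was left out (adjusted p up to 0.118). Irf4, which completes the complex of BATF with JUN and was chosen after its values were seen, read 16.24 ± 0.16 with and 16.75 ± 0.068 without glutamine, a rise of 0.51 (limma adjusted p = 0.0121) whose call was lost after quantile normalization.

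Upstream, RAS and MAP kinase genes moved both ways, 5 of 29 higher and 5 lower as deposited (median -0.030). With quantiles equalised 3 were higher and 7 lower (median -0.13), and with centring 2 and 7 (-0.19). Map2k1, the kinase gene MEK1 that activates ERK, fell from 12.52 ± 0.26 to 10.60 ± 0.32 (limma adjusted p = 0.00132). Map2k6, which activates p38, fell by 0.95 and Map3k8 fell by 0.82, while the RAS exchange factor gene Sos2 rose by 0.96. Of 15 phosphatases and inhibitors that switch this cascade off 3 were higher and 4 lower (median -0.016), with 5 lower once quantiles were equalised and 6 once arrays were centred. Spry1 rose by 1.23, Spred1 by 0.83 and the ERK phosphatase gene Dusp6 from 11.64 ± 0.14 to 12.80 ± 0.46, and Dusp4 fell by 1.10. The call of Dusp4 was lost without the second array lacking glutamine (adjusted p = 0.0588).

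Of 9 SRF, ETS and MEF2 genes, whose proteins bind the Fos and Jun promoters, 3 were higher and 0 lower as deposited (median 0.26), but 2 were higher and 1 lower after quantile normalization and 2 and 3 after centring. Elk1 rose from 9.36 ± 0.031 to 10.23 ± 0.098, Mef2a by 0.46 and Elk3 by 0.42, the last a call lost after either scaling and when any array but the third with glutamine was left out (adjusted p up to 0.125). Of 7 genes that govern the decay of JUN proteins 1 was higher and 1 lower (median 0.057). Fbxw7 rose by 0.46 and Itch, a ubiquitin ligase gene for JUN and JUNB, fell by 0.36. The call of Fbxw7 was lost after centring and when any array but the second lacking glutamine was left out (adjusted p up to 0.127), and that of Itch when any array but the first lacking glutamine was left out (up to 0.101).

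Immediate early genes other than Fos, Fosb and Jun fell in 8 of 24 cases and rose in 4 (median -0.049), or 10 and 2 after either scaling. Ier3 fell from 7.65 ± 0.59 to 5.56 ± 0.14, Nr4a2 fell by 1.13, Klf6 fell by 1.12, and Zfp36l1 rose by 1.37. Chosen after their values were seen, Nr4a1 fell by 0.90, while Egr2 and Egr1 rose by 0.86 and 0.49 (limma adjusted p = 0.0176 and 0.0337). How far the calls of Egr2 and Egr1 held over the alternatives is not given here.

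**Figure D4:**
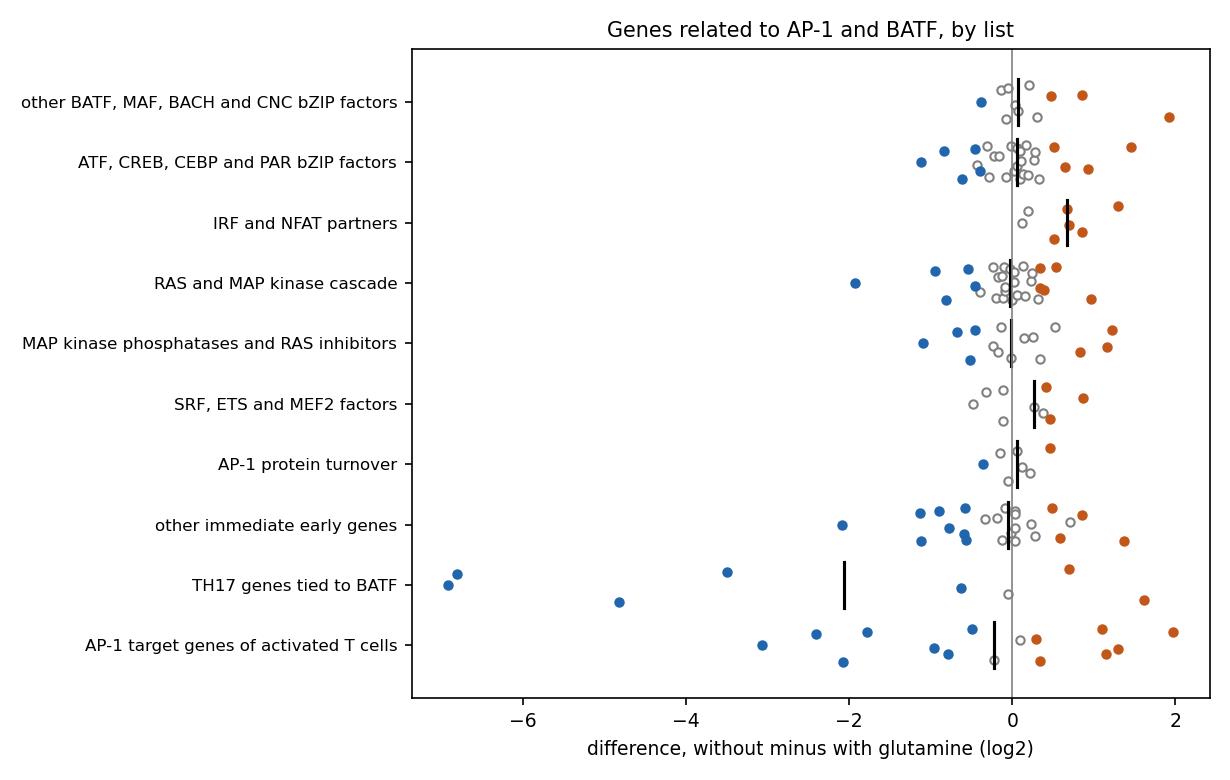
Difference without minus with glutamine (log2, horizontal axis) of each measured gene in the 10 related lists, as orange points for genes that passed and were higher, blue for genes that passed and were lower and open for the rest. Black bars mark each list's median, which is highest for the IRF and NFAT genes (0.67) and lowest for the TH17 genes tied to BATF (-2.06).

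Genes that AP-1 and BATF are known to act on changed in both directions. Of 8 analysed TH17 genes tied to BATF 5 were lower and 2 higher, against 13.0% and 9.3% of all genes, with a median of -2.06. Il22, Il17a, Il23r and Il17f fell by 6.92, 6.81, 4.83 and 3.50. Chosen after their values were seen, Ctla4 fell by 0.62, Ahr rose by 1.62, Il21 rose by 0.70 and Rora did not pass (-0.058, adjusted p = 0.682). The call of Il21 was lost after centring and without replicates 2 or 3 with glutamine or 1 or 2 lacking it (adjusted p up to 0.0773), and that of Ctla4 without the first array with glutamine or any array lacking it (up to 0.117).

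Of 15 AP-1 target genes of activated T cells 6 were higher and 7 lower (median -0.22). After quantile normalization 4 were higher and 8 lower, and after centring likewise. Il3 fell from 7.52 ± 0.66 to 4.45 ± 0.26, the costimulatory receptor gene Tnfrsf9 from 9.64 ± 0.68 to 7.23 ± 0.25 and Gzmb, which encodes granzyme B, fell by 2.08. Ifng rose from 5.55 ± 0.33 to 7.53 ± 0.61 (limma adjusted p = 0.00668), and, chosen after their values were seen, Csf2 rose by 1.30 and Tnf by 1.15.

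Over all genes, those with an AP-1 site in the window around a RefSeq start were described in the same way. Of 1564 such genes tested, 8.18% were higher and 11.1% lower (median 0.073), against 8% and 15.8% of the 18265 tested genes that had a window (median 0.045). Of 1739 genes with the CRE core, which Batf, Fos and Jdp2 hold, 8.05% were higher and 22.2% lower (median -0.015). These shares carry no test.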

How the data were processed

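Gene expression was measured in 6 mouse T cell cultures, 3 with and 3 without glutamine. The deposited values are log2 levels per array row, which per the submitters' processing notes come from the authors' use of RMA (a background correction, normalization and summary of probes) and of the Transcriptome Analysis Console 4.0. Its options, annotation and build were not given in the sources used here. Array medians differed, and 695 to 887 rows per array stood above 16, the log2 limit of a 16-bit scanner, so the scale may have been shifted or stretched and differences are given as log2, not as folds. No column of another sample was present (0). No 2 arrays held the same values, and precision is limited by their number.

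Of 65956 rows, 31258 named 1 gene in the platform annotation, 1492 several and 33206 were unnamed here; 1152 symbols were updated through RefSeq (GRCm38.p6). The row with the highest mean stood for a gene, which left 30702 genes with no filter. limma 3.58.1 (lmFit, eBayes, two-sided, no covariate) in R 4.3.3 tested all genes. Figures used matplotlib 3.10.9 in Python 3.11.15. The script was tested on simulated data.

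Named related genes are the up to 4 with the largest change past the threshold per list, or the 2 brightest where fewer than 2 passed, and for the largest rise and fall among the members the 3 genes with the nearest profile. Nrl and Nfe2l2, named by this rule, are not printed with values. Dropping 1 array could end their call, as it could for several genes that are printed with that limit. Marker genes are given mostly as counts. The members and lists were chosen with earlier results of these data known. The labels do not say whether same-numbered arrays are paired. Their deviations from the group means correlated at 0.066, -0.23 and 0.28, too few values to settle it. The main fit does not use the numbers as a block. Alternatives were other scalings, row choices, filters, variance models, thresholds, a block and leaving out each array.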

Additional observations from a re-analysis of the deposited data

How the results depend on the processing

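Over 16 alternatives Batf3, Fosl2 and Fosb kept their direction and their call. So did Jund and Fosl1, except that the unmoderated statistic called neither (members higher 0). Jun and Jdp2 passed in none and changed sign in some (-0.25 to 0.032 and -0.22 to 0.018). Members called lower numbered 3 to 6, with 6 after quantile normalization, after centring and among genes above the median level, and 4 to 5 when single arrays were left out. Whether the replicate numbers pair the arrays is not known from the labels. With the replicate block 6292 genes were called, Batf passed (adjusted p = 0.0448) and Fos did not (0.0676).

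Calls over all genes numbered 6843, and 10951 with all rows, 3832 with the unmoderated statistic, 2943 at adjusted p under 0.01 and 4060 to 6501 without single arrays, the lowest without the second array lacking glutamine. Rises made up 41.7% of calls as deposited, 21.7% after quantile normalization, 16.6% after centring and 61.8% over all rows. The median difference moved from 0.060 to -0.048 and -0.095 under those 2 scalings. Listed related genes called higher numbered 36, and 22 after centring, 17 with the unmoderated statistic, 17 at adjusted p under 0.01 and 22 to 30 without single arrays. Those called lower numbered 36, 43 after quantile normalization, 49 after centring, 20 with the unmoderated statistic, 21 at adjusted p under 0.01 and 25 to 34 without single arrays. The causes were not tested, beyond the fewer arrays in the last setting. Fosb, at 4.67 to 5.41 the dimmest member, read nearest to the array medians (4.18 to 4.38).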
